A study of Mus musculus with 12 samples.

Results

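The genes described here are 8 receptors that guide B lymphocytes through lymphoid tissue, namely Cxcr4, Cxcr5, Ccr6, Ccr7, S1pr1, S1pr4, Gpr183 and P2ry10. They were taken by gene symbol from a table of normalized mRNAseq counts that lists 29486 genes, and all 8 were among the 15613 genes with a value of at least 10 in at least 1 condition. Splenic B cells from C57BL/6Babr mice, 8 to 12 weeks old, were purified with a magnetic isolation kit and activated in culture with LPS, the bacterial lipopolysaccharide that stimulates B cells through a Toll-like receptor. Each of 3 conditions had 4 libraries of polyadenylated RNA. The first condition (LPS) held cells with LPS at 10 µg/ml for 48 h. In the second (LE), cells at the same stage received etoposide, which traps topoisomerase II on broken DNA, at 20 µM for 4 h. In the third (LEKU), KU55933, an inhibitor of the DNA damage kinase ATM, was added at 10 µM after 47 h with LPS, 1 h before etoposide at the same dose and time. LPS was thus present in every condition. The series text states that control RNA was also taken at the later time, while the sample labels give only 48 h for it. No cells received KU55933 without etoposide, so that effects of the inhibitor apart from etoposide were not measured. The stimulation field of the LEKU labels spells the inhibitor KU59933, where the titles have KU55933. Whether a library came from 1 mouse or from pooled mice is not given in the sources used here. Each Illumina index was used within 1 condition, by 2 of its 4 libraries, so that index and condition cannot be told apart.

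Homing receptors are G protein-coupled receptors that sense chemokines, lipids or oxysterols and turn a gradient of these ligands into directed movement. In resting B cells they set the position within spleen and lymph node. Cxcr5 leads cells into follicles, Ccr7 draws them towards the T cell zone, Gpr183 holds them at follicle borders, and S1pr1 takes them back into the circulation. Their mRNA abundance is known to change when B cells are activated. The question put to the data was how much mRNA of each receptor LPS-activated B cells held, and how this differed with DNA damage and with ATM inhibited during the damage.

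The deposited columns hold no spread between replicates. Within a condition any 2 columns had a constant ratio over all genes, to within 2.8e-14 in log2, which leaves 1 fitted value per gene and condition times a size factor per library. Each gene is therefore given by 1 value per condition, the fitted normalized count after division by the size factors, which stands for all 4 libraries of that condition. No SD and no p-value can be had from these columns, and every difference below is a description. The intervals given are exact 95% intervals for counting error alone, computed on the sum of the 4 columns, and they are a lower limit of the error since the spread between cultures is not in them. A difference of at least 2-fold was used as the threshold, with 1.5-fold beside it. In units of 1000000 counts, the fitted columns of LPS libraries summed to between 20.7 and 23.9, those of LE to between 22.5 and 30.6, and those of LEKU to between 20.4 and 25.1.

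The DNA just before the transcription start of Cxcr4, S1pr4 and Ccr6 is shown because these receptors were past 2-fold in at least 1 comparison and at least 1 of their starts held letters of an NF-kB or Klf motif. The stretches are the 250 bases before the start on GRCm38.p6, read 5′ to 3′ on the strand of the gene. Cxcr4 is at chr1:128592300-128592549 (minus strand), S1pr4 at chr10:81500138-81500387 (minus strand), and Ccr6 (plus strand) has 2 starts, at chr17:8235793-8236042 and chr17:8242276-8242525. Capitals mark letters that match GGGNNNNNCC, the general form of an NF-kB site, or CACCC, the core recognised by Klf factors, on either strand.
Cxcr4: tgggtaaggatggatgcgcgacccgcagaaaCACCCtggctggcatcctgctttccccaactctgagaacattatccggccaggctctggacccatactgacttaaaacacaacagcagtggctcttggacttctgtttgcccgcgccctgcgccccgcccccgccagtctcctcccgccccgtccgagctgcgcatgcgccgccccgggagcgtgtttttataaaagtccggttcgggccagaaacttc
S1pr4: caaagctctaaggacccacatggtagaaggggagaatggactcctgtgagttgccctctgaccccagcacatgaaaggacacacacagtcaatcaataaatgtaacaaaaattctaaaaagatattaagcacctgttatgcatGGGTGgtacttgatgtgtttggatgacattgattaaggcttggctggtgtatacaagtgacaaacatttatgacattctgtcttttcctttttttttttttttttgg
Ccr6 at the first start: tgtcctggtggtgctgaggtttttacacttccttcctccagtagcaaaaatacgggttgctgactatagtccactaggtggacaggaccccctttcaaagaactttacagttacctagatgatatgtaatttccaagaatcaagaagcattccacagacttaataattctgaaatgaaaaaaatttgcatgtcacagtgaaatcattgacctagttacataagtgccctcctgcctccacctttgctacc
Ccr6 at the second start: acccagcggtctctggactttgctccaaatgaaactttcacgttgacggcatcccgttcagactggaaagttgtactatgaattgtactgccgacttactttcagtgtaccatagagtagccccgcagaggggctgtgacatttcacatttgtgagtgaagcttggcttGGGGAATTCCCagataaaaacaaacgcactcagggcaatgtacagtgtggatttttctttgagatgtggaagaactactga

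Cxcr4 had 1 CACCC match, 219 bases before the start (position -219), in a window of 61.2% G and C. The window of S1pr4 had 38.8% G and C and also held 1 such match, on the opposite strand at position -107. Before the second start of Ccr6 lay 2 overlapping matches to the NF-kB form within a single run of 11 letters, and the first start had none. TGTTTAC, a forkhead form, matched in none of the 7 windows held for members, which come from 5 receptors, Gpr183 and both starts of P2ry10 included. P2ry10 had 1 match to the NF-kB form before its second start, and Gpr183 had no match to any of these 3 forms. The E-box letters CANNTG were found 4 times before S1pr4, 2 times before Gpr183 and not before Cxcr4. They were found 2 times before the second start of Ccr6 and not before its first. P2ry10 had 1 before its first start and 2 before its second. Among 32851 mouse promoter windows of this length, 45.8% held the NF-kB form, 52.0% CACCC, 3.17% the forkhead form and 66.2% an E-box, and the median G and C content was 52.4%. The CACCC and NF-kB forms are thus common letters, and a match is a description, not a binding site. RefSeq starts of Cxcr5, Ccr7 and S1pr1 were not held in the table used here.

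LPS-activated B cells contained mRNA of all 8 receptors, spread over a 12.25-fold range per kilobase of exon. Cxcr5, the receptor for Cxcl13, was the most abundant of them, with 8954 normalized counts, or 2687 per kilobase, above 97.2% of genes with a length. Ccr7, the receptor for Ccl19 and Ccl21, followed with 4821 counts and 2437 per kilobase. These 2 receptors for the follicle and the T zone stood 2.85-fold and more above all the others per kilobase. Ccr6, the receptor for Ccl20, had 855 per kilobase. P2ry10, a receptor for lysophosphatidylserine, had 822 per kilobase, and the counting intervals of Ccr6 and P2ry10 overlapped. Below these 2 lay Gpr183, the receptor for oxysterols also known as EBI2, at 518 per kilobase. Cxcr4, the receptor for Cxcl12, had 395 per kilobase, and S1pr4 had 362. S1pr1, the receptor through which lymphocytes follow sphingosine 1-phosphate out of lymphoid organs, was the least abundant of the 8 at 219 per kilobase. The order in LPS was the same when the longest transcript replaced the union of exons as the length.

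The order changed with the treatments, and only 1 of 7 neighbouring pairs overlapped in their counting intervals in LPS, 1 in LE and 0 in LEKU. In LE, Cxcr4 stood in the fourth place, above Ccr6, and the highest level per kilobase was 26.8 times the lowest. Ccr6 and Gpr183, at 358 and 341 per kilobase, were the LE pair with overlapping intervals. In LEKU, Ccr7 replaced Cxcr5 at the top, with 5451 against 3720 per kilobase, and S1pr4 replaced S1pr1 at the bottom, with 171 against 202. Ccr7 per kilobase was 0.907 times Cxcr5 in LPS, 0.702 times in LE and 1.47 times in LEKU. The ratio of Cxcr4 to Cxcr5, which together sort germinal centre B cells between dark and light zones, went from 0.147 in LPS to 0.204 in LE and 0.242 in LEKU. Summed per kilobase, the 8 receptors came to 8295 in LPS, 7417 in LE and 12441 in LEKU. Of that sum, Ccr7 held 29.4% in LPS, 28.7% in LE and 43.8% in LEKU, while Gpr183 went from 6.24% to 4.59% and 1.76%.

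**Figure D1:**
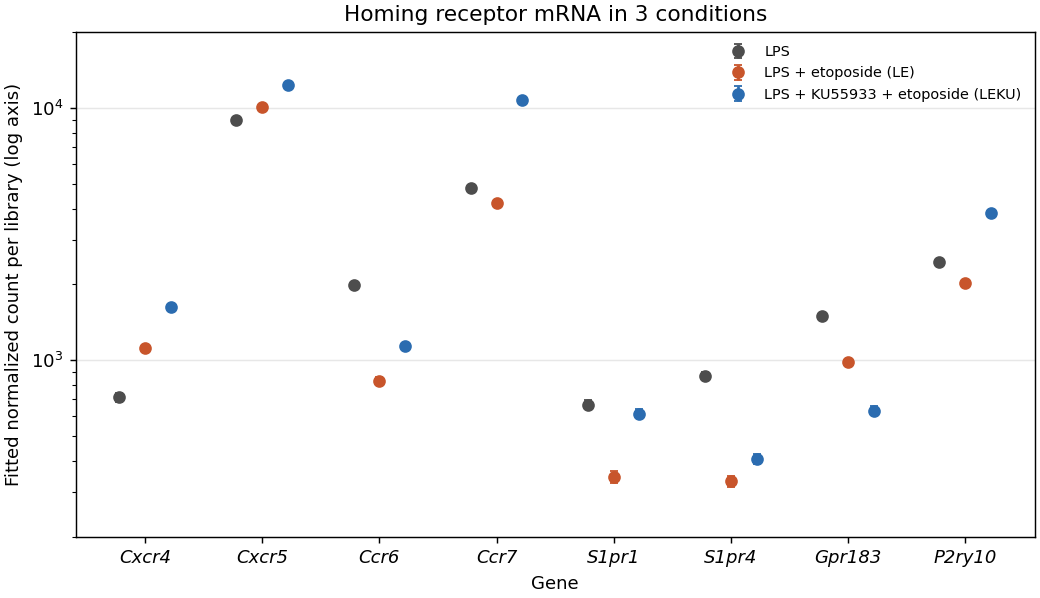
Fitted normalized count per library (log axis) of each of the 8 receptors, with 1 point for LPS (grey), LE (orange) and LEKU (blue). Each point is the single fitted value of a condition with its 95% counting interval, mostly smaller than the point, and S1pr1 shows the pattern of 668, 345 and 615 counts while Gpr183 steps down from 1494 to 983 and 632.

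Positions of the receptors on GRCm38 were taken from GENCODE M21. Cxcr4 lies on chromosome 1 from 128588199 to 128592293 (minus strand), Ccr6 on chromosome 17 from 8236043 to 8257141 (plus strand), and Ccr7 on chromosome 11 from 99144196 to 99155077 (minus strand). S1pr1 lies on chromosome 3 from 115710433 to 115715072 and S1pr4 on chromosome 10 from 81497747 to 81500132, both on the minus strand. P2ry10 lies on chromosome X from 107088492 to 107104974 (plus strand). Cxcr5, on chromosome 9 from 44511787 to 44561877 (minus strand), shares 110 of its 3332 exonic bases with Bcl9l on the opposite strand. Gpr183, on chromosome 14 from 121952551 to 121965195 (minus strand), sits inside the span of Ubac2 on the opposite strand, without shared exonic bases. The strand setting of the counting is not given in the sources used here, so that reads from the shared bases of Cxcr5 and Bcl9l cannot be told apart.

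Among the 8 receptors, etoposide was accompanied by lower mRNA of S1pr4, Ccr6, S1pr1 and Gpr183 and by higher Cxcr4. At 2-fold, 0 of the 8 receptors were higher in LE than in LPS, where 15.1% of all genes kept were, and 2 were lower, against 5.18% of all genes. At 1.5-fold, 1 was higher (23.4% of all genes) and 4 were lower (14.4% of all genes). The median log2 difference of the 8 was -0.44, beside 0.04 over all genes, and 6 of the 8 were below 0, while 52.9% of all genes were above 0. A lower value in a bulk library can mean fewer cells with the mRNA or less mRNA in each cell, and these cannot be told apart.

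S1pr4, a receptor for sphingosine 1-phosphate found mainly on blood cells, had 865 counts in LPS and 332 in LE. It was 2.60-fold lower, a log2 difference of -1.38 (counting interval -1.47 to -1.29), at percentile 1.89 of all genes. Ccr6 had 1984 counts in LPS and 829 in LE, 2.39-fold lower at -1.26 (-1.32 to -1.20). These were the 2 receptors past the threshold. S1pr1 went from 668 to 345 counts, 1.93-fold lower at -0.95 (-1.05 to -0.86), just short of 2-fold, and it passed only under quantile normalization (-1.03). Gpr183 had 1494 counts in LPS and 983 in LE, a log2 difference of -0.60 (-0.66 to -0.55). Both sphingosine 1-phosphate receptors of the 8 and the oxysterol receptor were thus among the 4 at least 1.5-fold lower.

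The other 4 receptors differed by less, and not in the same direction. Cxcr4 was the only member at least 1.5-fold higher, with 714 counts in LPS and 1119 in LE, a log2 difference of 0.65 (0.58 to 0.72). Cxcr5 had 8954 and 10117 counts, a difference of 0.18 (0.16 to 0.20). Ccr7 had 4821 and 4213 counts, a difference of -0.19 (-0.22 to -0.16). P2ry10 had 2451 and 2029.9 counts, a difference of -0.27 (-0.31 to -0.23). The differences of Ccr7 and P2ry10 were inside the middle range of all genes, from -0.34 to 0.52 between the quartiles, and that of Cxcr5 too. Ccr7 and P2ry10 came out at 0.08 and 0.01 when the columns were taken as deposited, without division by the size factors.

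**Figure D2:**
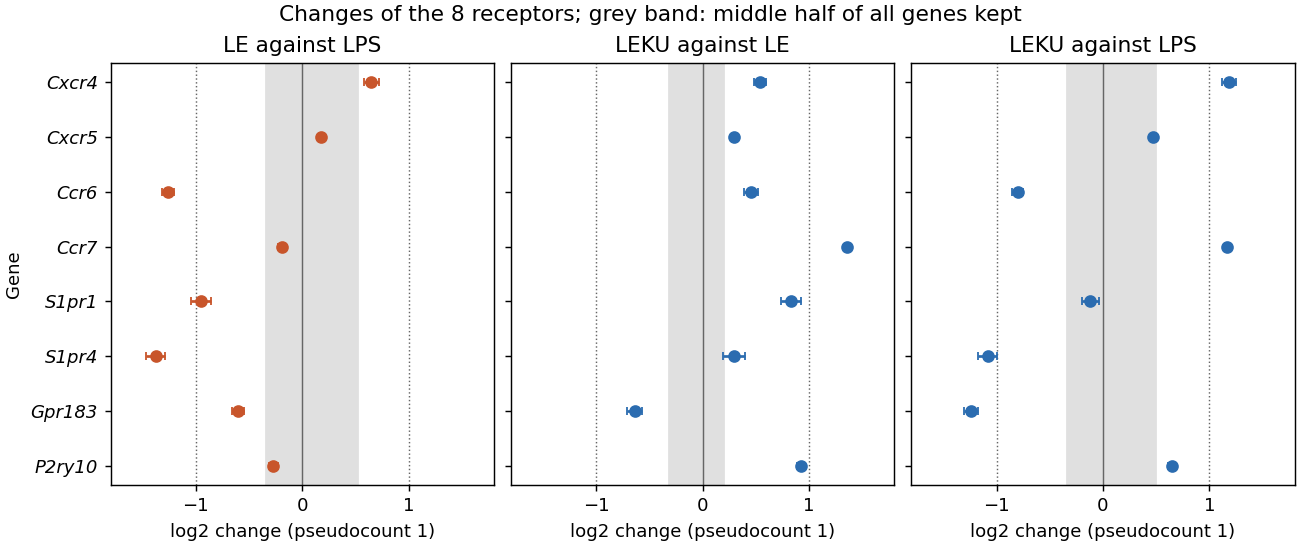
Log2 differences (pseudocount 1) of the 8 receptors in LE against LPS, LEKU against LE and LEKU against LPS, with 95% counting intervals as bars, dotted lines at 2-fold and a grey band between the quartiles of all genes kept. S1pr4 (-1.38) and Ccr6 (-1.26) lie left of the 2-fold line in the first panel, Ccr7 (1.36) lies right of it in the second, and 4 receptors lie beyond a line in the third.

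With ATM inhibited during etoposide, 7 of the 8 receptors were higher than with etoposide alone, where 44.4% of all genes were, and Gpr183 was lower. At 2-fold, 1 receptor was higher in LEKU than in LE, where 1.71% of all genes kept were, and 0 were lower, against 4.69% of all genes. At 1.5-fold, 3 were higher (6.93% of all genes) and 1 was lower (11.9% of all genes). The median log2 difference of the 8 was 0.50, beside -0.05 over all genes.

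Ccr7 stood apart, with 4213 counts in LE and 10781 in LEKU. This was 2.56-fold higher, a log2 difference of 1.36 (counting interval 1.33 to 1.38), at percentile 99.4 of all genes. P2ry10 had 2029.9 and 3850.3 counts, 1.90-fold higher at 0.92 (0.89 to 0.96), and passed 2-fold only under quantile normalization (1.05). S1pr1 had 345 and 615 counts, 1.78-fold higher at 0.83 (0.74 to 0.93). P2ry10 lay at percentile 97.8 and S1pr1 at 97.0. Cxcr4 had 1119 and 1624 counts, a difference of 0.54 (0.48 to 0.59), at percentile 91.9. Ccr6 had 829 and 1137 counts, a difference of 0.46 (0.39 to 0.52), at percentile 89.2. These smaller differences were still above the upper quartile of all genes, which was 0.21.

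Cxcr5 and S1pr4 were close to each other on this scale. Cxcr5 had 10117 counts in LE and 12394 in LEKU, a difference of 0.29 (0.27 to 0.31), and S1pr4 had 332 and 407, a difference of 0.29 (0.19 to 0.40). Both S1pr1 and S1pr4 had lower values in LE than in LPS, while in LEKU against LE their differences were 0.83 and 0.29. S1pr1 per kilobase was 0.605 times S1pr4 in LPS, 0.814 times in LE and 1.18 times in LEKU. Gpr183 had 983 counts in LE and 632 in LEKU, 1.56-fold lower at -0.64 (-0.71 to -0.57), at percentile 10.5. It was the single receptor of the 8 with a lower value at each step from LPS to LE to LEKU.

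Against LPS alone, cells with KU55933 and etoposide had more mRNA of Cxcr4 and Ccr7 and less of Gpr183 and S1pr4. At 2-fold, 2 of the 8 were higher in LEKU than in LPS (11.9% of all genes kept) and 2 were lower (5.36% of all genes). At 1.5-fold, 3 were higher (22.0% of all genes) and 3 were lower (14.2% of all genes). The median of the 8 was 0.18, beside 0.07 over all genes, with 4 receptors on each side of 0. The 3 comparisons share their libraries in pairs, so that the values of a receptor in them are not independent of each other.

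Cxcr4 had 714 counts in LPS and 1624 in LEKU, 2.27-fold higher at 1.18 (counting interval 1.12 to 1.25), reached by differences of 0.65 and 0.54 from LPS to LE and from LE to LEKU. Ccr7 had 4821 and 10781 counts, 2.24-fold higher at 1.16 (1.14 to 1.19), reached by differences of -0.19 and 1.36 over the same steps. P2ry10 was 1.57-fold higher at 0.65 (0.61 to 0.69). Gpr183 had 1494 and 632 counts, 2.36-fold lower at -1.24 (-1.31 to -1.17), reached by differences of -0.60 and -0.64. S1pr4 had 865 and 407 counts, 2.12-fold lower at -1.08 (-1.17 to -0.9998), and it was short of 2-fold at -0.96 with library totals and at -0.90 with the columns as deposited. Ccr6 had 1984 and 1137 counts, 1.74-fold lower at -0.80 (-0.86 to -0.75). Cxcr5 was 1.38-fold higher at 0.47 (0.45 to 0.49). S1pr1 had 668 and 615 counts, the smallest difference of the 8 at -0.12 (-0.20 to -0.04), and its sign turned, to 0.01 with library totals as the scaling and to 0.07 with the columns as deposited.

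**Figure D3:**
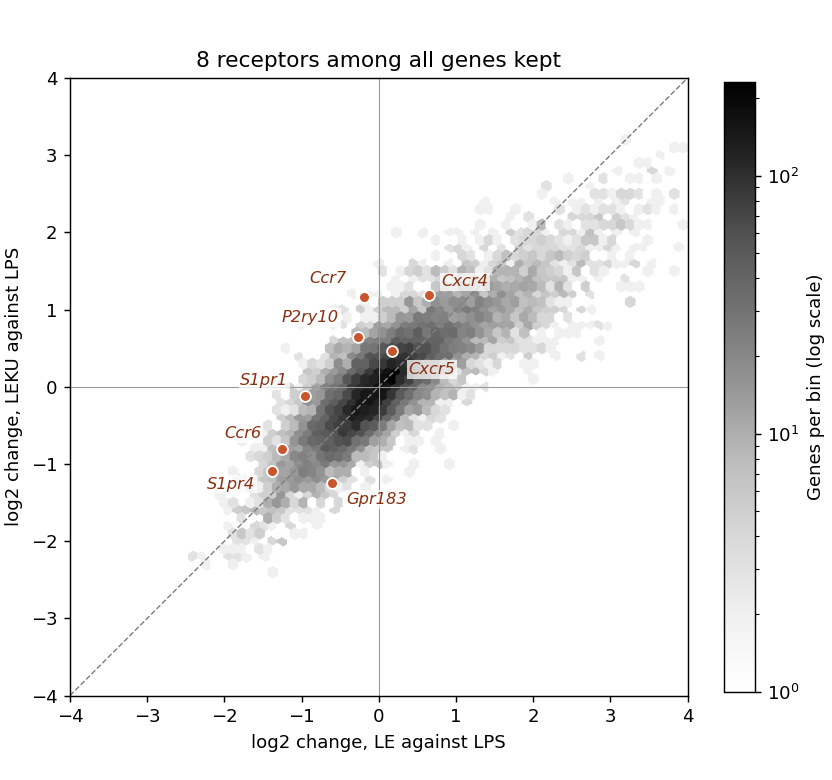
Log2 difference of LEKU against LPS plotted over that of LE against LPS for the 8 receptors (orange points) and all genes kept (grey hexagons, darker with more genes on a log scale), with a dashed line where both are equal. The 7 receptors other than Gpr183 lie above the dashed line and Gpr183 lies below it, and 132 genes fall beyond the axis limit of 4 on either axis.

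The 5 receptors past 2-fold in at least 1 comparison were set beside all other genes by the pair of log2 differences against LPS, over the 3 conditions and 11356 genes with a value of at least 100 in at least 1 condition. Cxcr5, S1pr1 and P2ry10 were not included. Of the 5, Ccr7 had the fewest genes with a like pattern, 15 within a distance of 0.25, and the nearest were 4930481A15Rik and Zfp768 at 0.04 and 0.10. Cxcr4 had 77 such genes, with Sccpdh, H2-T10 and Cage1 nearest at 0.04 to 0.06. Gpr183 had 96, with Zfp407, Ddx39 and Gm9008 nearest, and S1pr4 had 108, with Fmnl1 and Ighj4 among the nearest. The highest number of the 5 was that of Ccr6, with 123 genes, of which Dpp4 was nearest at 0.004 with 4199.6 counts in LPS, 1761 in LE and 2405 in LEKU. Reads of H2-T10, Ighj4 and Gm9008 may be shared with similar genes, and their values are uncertain.

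The other chemokine receptors mostly had low values. Apart from Ccrl2, all were below 332 counts in every condition, the lowest value among the 8 receptors. Of all 29486 genes 15613 passed the filter, and of the 19 in this list 11 did. At 2-fold, 1 was higher and 2 lower in LE than in LPS (15.1% and 5.18% of all genes). Their median was -0.18 in LE against LPS. Ccrl2, an atypical receptor that binds chemerin, had 267 counts in LPS, 489.5 in LE and 2608 in LEKU, a difference of 2.41 between LE and LEKU that exceeded the 1.36 of Ccr7. Ackr2, a scavenger of inflammatory chemokines, had 302, 47.8 and 27.6 counts, and Ackr4, which takes up Ccl19 and Ccl21, had 20.0, 57.2 and 26.8.

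Receptors for lipids and nucleotides other than S1pr1, S1pr4, Gpr183 and P2ry10, grouped by kind of ligand and not as a family, moved both ways. Of 20 that passed the filter, 6 were at least 2-fold higher and 3 lower in LE than in LPS (15.1% and 5.18% of all genes). In LEKU against LE, 0 were higher and 3 lower at 2-fold (1.71% and 4.69% of all genes). In LEKU against LPS, 5 were higher and 4 lower (11.9% and 5.36% of all genes). Gpr174, like P2ry10 a receptor for lysophosphatidylserine, had 1729.9 counts in LPS, 666 in LE and 983 in LEKU. P2rx7, an ATP-gated channel, had 35.5, 1305 and 391 counts. Gpr55, a receptor for lysophosphatidylinositol, had 343, 1348 and 388 counts. S1pr2, which in germinal centre B cells opposes migration, had 66.0, 106 and 91.0 counts. Its difference was 0.67 in LE against LPS, above that of Cxcr4, and it was under 2-fold in all 3 comparisons.

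The chemokine ligands of the members were near 0 in these cultures. Cxcl12, Cxcl13, Ccl19, Ccl20 and Ccl21a each had under 2 counts in every condition, as did Ch25h and Cyp7b1, which make the oxysterol ligand of Gpr183. Beside 15613 of all 29486 genes, 9 of 17 genes of ligands and their enzymes passed the filter. Of these, 4 were at least 2-fold higher and 0 lower in LE than in LPS (15.1% and 5.18% of all genes). Mfsd2b, an exporter of sphingosine 1-phosphate, had 53.3 counts in LPS, 393 in LE and 379.7 in LEKU. Hsd3b7, which degrades the ligand of Gpr183, had 106, 434 and 226 counts. Sgpp1, a phosphatase of sphingosine 1-phosphate, had 1384, 3565 and 2755 counts.

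Downstream of the receptors, genes of signal transduction moved both ways. Of 21 G protein subunits and Rgs proteins, 3 were higher and 3 lower at 2-fold in LE than in LPS (15.1% and 5.18% of all genes). Rgs18, an Rgs protein that shortens the signal of Gi-coupled receptors, had 87.7, 833 and 189.9 counts, while Rgs2 had 377, 598 and 1340.0. Gng2, a gamma subunit, had 2341 counts in LPS and 907 in LE.

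Of 10 genes for receptor desensitization, 0 were higher and 2 lower at 2-fold in LE than in LPS (15.1% and 5.18% of all genes). Their median was -0.52. Grk6, a kinase that phosphorylates active receptors, had 6245, 2341 and 2359 counts in LPS, LE and LEKU, and the arrestin Arrb1 had 584, 272 and 275. Both were lower in LE and about equal between LE and LEKU. Of 20 genes for integrins and adhesion, 2 were higher and 2 lower at 2-fold in LE than in LPS (same shares of all genes). Icam1, a ligand of integrins, had 1554, 7247 and 4273 counts.

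Transcription factors known to act on genes of homing and B cell identity were then counted. Of 14, 0 were higher and 6 lower at 2-fold in LE than in LPS (15.1% and 5.18% of all genes), with a median of -0.61. In LEKU against LE 0 passed 2-fold, beside 6.4% of all genes. Klf2, which drives S1pr1 in lymphocytes, had 859.9 counts in LPS, 192 in LE and 326 in LEKU, differences of -2.16 and 0.76. Bach2 and Pax5, factors of B cell identity, had differences of -1.94 and -2.25 in LE against LPS and of -0.09 and 0.05 in LEKU against LE. The values of Klf2 were thus lowest in LE like those of S1pr1, and a link between Klf2 and S1pr1 was not tested. This order was not particular to them, since Pax5, Ccr6, Ccr7, S1pr4 and P2ry10 were also lowest in LE.

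**Figure D4:**
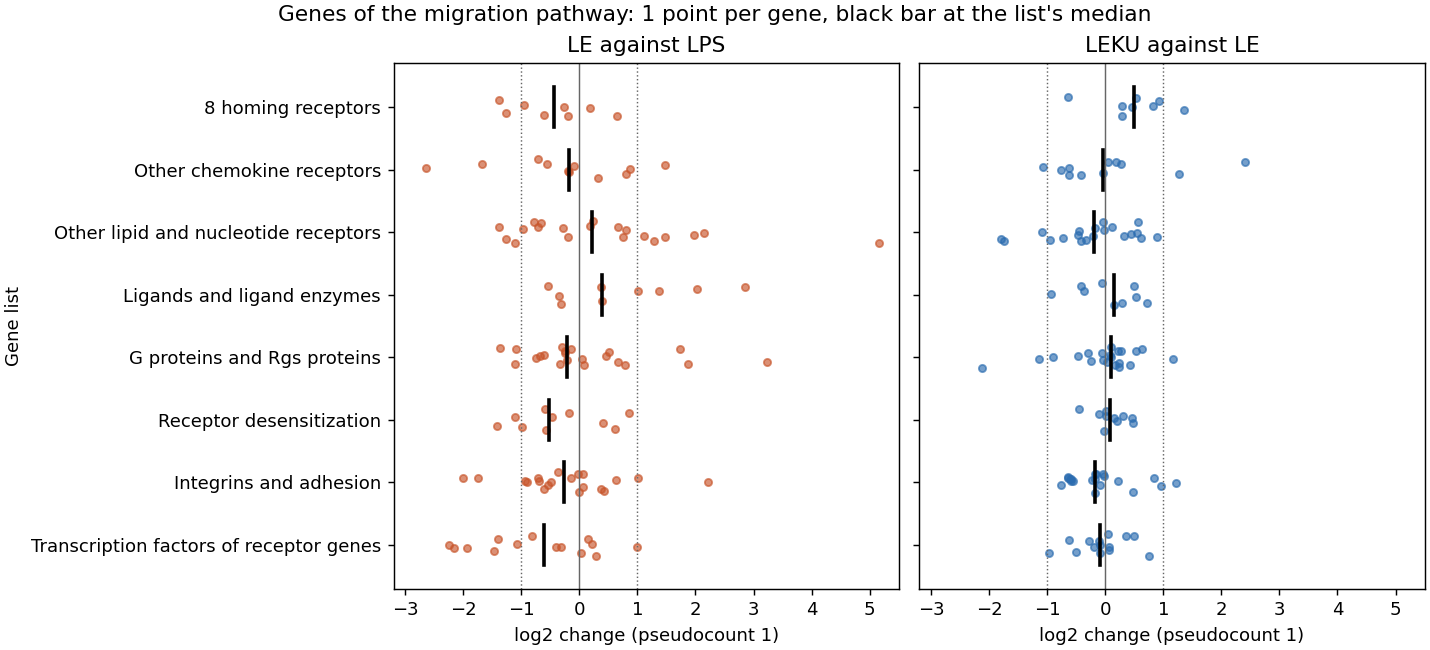
Log2 differences (pseudocount 1) of the 8 receptors and of 7 lists of genes of the migration pathway in LE against LPS and LEKU against LE, with 1 point per gene that passed the filter, a black bar at the median of a list and dotted lines at 2-fold. The receptors have a median of -0.44 in the left panel and 0.50 in the right, and the transcription factors have -0.61 and -0.09.

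The cells carried B cell markers in all conditions, as labelled. Cd79a had 21775 counts in LPS, 15879 in LE and 16340.0 in LEKU, and the lowest value of the 6 B cell markers was 1139, of Pax5 in LE. Of the 6, 2 were at least 2-fold lower in LE than in LPS (5.18% of all genes), namely Cd22 and Pax5. All 5 T cell markers, all 4 neutrophil markers and Klrb1c of NK cells were under 10 counts in every condition, with Cd3e at 0.68 to 1.81. The 6 macrophage markers summed to 407, 475 and 434 counts. In LE against LPS, 3 of the 6 were at least 2-fold higher and 0 lower (15.1% and 5.18% of all genes). The 3 were Cd68 with 102, 215 and 177 counts, Csf1r with 4.08, 10.5 and 9.79, and Cd14 with 5.05, 24.6 and 40.9. Lyz2 had 33.5, 48.8 and 51.6 counts. Itgam, with 215, 131 and 116 counts, and Adgre1, with 47.8, 45.9 and 39.8, were lower in LE than in LPS. Among dendritic cell markers, Flt3 had 2733, 1677 and 2965 counts and Xcr1 40.2, 70.9 and 45.6, while Siglech and Clec9a were under 1. Of the 5 plasma cell markers, only Sdc1 was at least 2-fold higher in LE than in LPS, with 135, 1984 and 641 counts. In that comparison Irf4 and Jchain had differences of 0.16 and 0.44, and Xbp1 and Prdm1 were lower at -0.46 and -0.40. The 5 markers summed to 24410, 26268 and 16154 counts. The part of plasma cell differentiation or of other cells in the receptor values was not tested. Cdkn1a, a p53 target used as a check of the etoposide response, had 402, 13652 and 10869 counts.

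Another scaling moved both the background and the receptors. Under quantile normalization the difference of Cxcr5 went from 0.18 to 0.45 in LE against LPS and from 0.47 to 0.77 in LEKU against LPS, and that of Ccr7 from 1.16 to 1.43 in LEKU against LPS. Of 3163 genes past 2-fold in LE against LPS, 74.5% were higher, and this share was 54.0% under quantile normalization and 88.4% with the columns as deposited. In LEKU against LE it was 26.7%, and 41.5% under quantile normalization, and in LEKU against LPS it was 69.0%, 51.6% under quantile normalization and 81.6% with the columns as deposited. The median of all genes shifted by -0.13 under quantile normalization in LE against LPS and by 0.13 with library totals in LEKU against LPS. The columns as deposited shifted it by 0.27 and 0.19 in these comparisons. The difference of Ccr6 in LE against LPS was then -0.98, and that of S1pr4 was -1.10.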

How the data were processed

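Total mRNA of 12 libraries was sequenced, 4 for each of LPS, LE and LEKU, after a TruSeq mRNA preparation. The authors trimmed reads with Trim Galore and cutadapt 1.2.1, aligned them to GRCm38 with TopHat2 2.0.12, counted them per Ensembl gene with HTSeq and fitted DESeq2 1.6.3. The deposited normalized counts are a signal, the fitted mean of a condition times the size factor of a library, so that the spread between libraries was removed before deposit and the planned limma test could not be run. Whether the fit moderated the changes is not given in the sources used here. The 3 deposited comparison tables of the authors hold means, log2 fold changes, standard errors, Wald statistics, p-values and adjusted p-values, and were not used.

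Columns were divided by size factors (median of ratios over 13712 genes with at least 10 in every column, ranging from 0.838 to 0.967 in LPS, from 0.957 to 1.30 in LE and from 0.900 to 1.11 in LEKU) and averaged per condition. Differences used a pseudocount of 1, which understates changes of genes with low values. Levels per kilobase used the union of GENCODE M21 exons, held for 99.5% of the genes kept. Counting intervals were exact Poisson intervals for values and conditional binomial intervals for differences, at 95%, and would be wider if replicate spread were known. The functions were tested on simulated data. The tools were Python 3.11.15 with pandas 2.3.3, scipy 1.17.1 and numpy 2.4.6, and figures were drawn with matplotlib 3.10.9.

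The 8 receptors and all gene lists were chosen with earlier results of these data known. Promoter letters and genomic spans were examined after the values were seen. Apart from the receptors, genes were named by a rule: in each list and comparison, up to 4 with the greatest differences past 2-fold and a value of at least 50 in 1 condition, with cell type markers, Cdkn1a, and the 3 nearest patterns of each receptor past 2-fold. S1pr2 and the ligand genes were named after their values were seen. Results for some genes and for 1 list that the rule covers are not reported here.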

Additional observations from a re-analysis of the deposited data

How the results depend on the processing

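No paired analysis was possible because the columns of a condition differ by 1 factor for all genes and hold no replicate spread. For the same reason leaving out any library left the counts of receptors past 2-fold as they were, by construction, and this says nothing about stability. The receptors past 2-fold were 2 in LE against LPS, 1 in LEKU against LE and 4 in LEKU against LPS. Quantile normalization gave 3 in LE against LPS, with S1pr1 at -1.03, and 2 in LEKU against LE, with P2ry10 at 1.05. The columns as deposited gave 1 in LE against LPS, with Ccr6 at -0.98, and 3 in LEKU against LPS, with S1pr4 at -0.90. At 1.5-fold the receptors past the threshold were 5 in LE against LPS and 4 in LEKU against LE, and all genes past it were 5892, 2945 and 5651 in LE against LPS, LEKU against LE and LEKU against LPS, against 3163, 999 and 2701 at 2-fold. A minimum of 50 left 621 genes in LEKU against LE, where fewer genes were compared. Pseudocounts of 0.5 and 5, library totals, the trimmed mean of M values and the upper quartile left the counts of receptors past 2-fold as they were, except that library totals gave 3 in LEKU against LPS, with S1pr4 at -0.96. A replicate block was not run. The lowest fitted value of a receptor was 332 counts per condition, and the spread between cultures is not known here.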

Other observations

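The 8 receptor genes span from 2.39 kb (S1pr4) to 50.1 kb (Cxcr5) of the genome, beside a median of 17.5 kb over the genes kept. Genes spanning over 100 kb had a median log2 difference of -0.19 in LE against LPS, and 11.3% of these 1534 genes were at least 2-fold lower. For the 5543 genes under 10 kb these values were 0.06 and 4.73%. Of the receptors past 2-fold in that comparison, S1pr4 has the shortest span of the 8, and Ccr6 spans 21.1 kb. In the list of transcription factors the 6 genes at least 2-fold lower in LE had a median span of 154 kb and the other 8 a median of 35.0 kb. This order was not shared by every list. Among the receptors themselves, the 2 at least 2-fold lower had a median of 11.74 kb and the other 6 of 11.76 kb. For receptor desensitization, the 2 lower genes had 43.6 kb and the other 8 had 84.4 kb. The part of gene span in the differences was not tested.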
